A study of Mus musculus with 6 samples.

Results

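The genes examined were 10 imprinted regulators of growth, taken from the deposited table by their gene names: Grb10, Plagl1, Mest, Sgce, H19, Meg3, Rian, Dlk1, Peg3 and Ndn. They are 10 of the 54532 genes in the table, 7 of them protein-coding and 3 noncoding, and each name matched 1 row. The cells were MC3T3-E1, a clonal line of pre-osteoblasts from mouse calvaria. They were kept in osteogenic medium, which held ascorbic acid, β-glycerophosphate and dexamethasone in both groups, for 3 days. The control group (3 samples) received this medium alone, and the metformin group (3 samples) received it with 0.2 mM metformin, a biguanide used to lower blood glucose. Dose and time come from the study's methods and results text, since the labels give neither, and the study's methods call the samples biological replicates.

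An imprinted gene is read mainly from the copy inherited from 1 parent, because DNA methylation laid down in the egg or sperm marks the copies differently. Many such genes lie in clusters, and many act on growth before and after birth: several paternally expressed genes favour it and several maternally expressed genes restrain it. H19, Dlk1 and other members of this group are known for high levels in the embryo that fall in most tissues after birth. RNA sequencing of this kind sums both copies, so these data say nothing about which parental copy was read.

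The values are FPKM, reads scaled by gene length and by library, and the reads behind them were recovered. The samples held 18399861 to 22111790 reads, and 3 reads, the upper limit that a count of 0 allows, were taken as the floor, for counting error only. Control replicate 1 stood apart: across genes its log2 values had Pearson correlations of 0.96 and 0.952 with the other controls, which had 0.988 with each other, and the metformin samples had 0.992. The departure of each sample from the mean of the others in its group was set against transcript GC content across genes. The Spearman rho was -0.668, 0.411 and 0.635 for control replicates 1, 2 and 3. For metformin replicates 1, 2 and 3 it was 0.127, 0.116 and -0.224. A sample enters the values of its fellows with the opposite sign, so the values of a group are not separate findings. Genes are also not independent replicates. Of 12 osteoblast markers 11 passed the level limit described below, among them Col1a1, Runx2 and Sp7. The 12 summed to 11438 to 13449 FPKM in the controls and 8177 to 8673 FPKM with metformin, a sum led by Spp1, which had means of 7703 and 2704 FPKM. The list went both ways: Spp1 and Ibsp were called lower, and Col1a1, Col1a2 and Dlx5 were called higher. Of 6 skeletal muscle markers 5 had at most 3 reads in any sample, and the 5 endothelial markers summed to at most 0.156 FPKM. The adipocyte markers summed to 7.86 to 12.2 FPKM in the controls and 8.64 to 9.72 FPKM with metformin, and the chondrocyte markers to 29.9 to 43.6 and 29.0 to 31.0 FPKM. Among the chondrocyte markers Col10a1 was called lower, with means of 3.79 FPKM in the controls and 0.264 FPKM with metformin. Its metformin mean was under the level limit, so it was tested only because of its level in the controls. The macrophage and osteoclast list summed to 245 to 273 and 150 to 163 FPKM, nearly all of it from Ctsk, with Ptprc, Adgre1 and Acp5 at or near 0. Its tested genes, Ctsk and Cd68, were called lower, where 9.28% of all tested genes were.

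The imprinted genes fell into 2 sets by level. Mest, Plagl1, Grb10 and Sgce were expressed in every sample, each with at least 1737 reads, and the other 6 had at most 18 reads in any sample. To show the stretches upstream of genes in both sets, the 250 bases before the start site are given for 3 of the expressed genes and for 2 of those without appreciable reads. They come from RefSeq (GRCm38.p6), 5′ to 3′ on the strand of the gene, with every CpG site, the target of the methylation that marks imprinted copies, in capitals. The windows are chr11:12037421-12037670 (minus strand) for Grb10, chr10:13090582-13090831 (plus) for Plagl1, chr6:30737800-30738049 (plus) for Mest, chr7:6730420-6730669 (minus) for Peg3 and chr12:109452573-109452822 (plus) for Dlk1.
Grb10: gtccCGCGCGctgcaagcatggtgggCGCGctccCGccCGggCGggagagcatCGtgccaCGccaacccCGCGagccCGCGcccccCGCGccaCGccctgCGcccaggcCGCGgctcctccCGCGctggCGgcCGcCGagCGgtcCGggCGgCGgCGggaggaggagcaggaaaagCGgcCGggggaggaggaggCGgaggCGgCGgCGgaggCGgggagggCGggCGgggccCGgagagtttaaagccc
Plagl1: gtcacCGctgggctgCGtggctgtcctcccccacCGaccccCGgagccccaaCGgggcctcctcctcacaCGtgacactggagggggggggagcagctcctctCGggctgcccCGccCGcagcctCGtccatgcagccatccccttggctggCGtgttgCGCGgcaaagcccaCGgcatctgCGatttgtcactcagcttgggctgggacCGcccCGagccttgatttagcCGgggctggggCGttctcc
Mest: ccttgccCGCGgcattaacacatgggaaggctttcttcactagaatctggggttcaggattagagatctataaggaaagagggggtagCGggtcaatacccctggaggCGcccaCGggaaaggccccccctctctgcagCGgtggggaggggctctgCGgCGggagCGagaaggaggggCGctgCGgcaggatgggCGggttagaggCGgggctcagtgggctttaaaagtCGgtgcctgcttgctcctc
Peg3: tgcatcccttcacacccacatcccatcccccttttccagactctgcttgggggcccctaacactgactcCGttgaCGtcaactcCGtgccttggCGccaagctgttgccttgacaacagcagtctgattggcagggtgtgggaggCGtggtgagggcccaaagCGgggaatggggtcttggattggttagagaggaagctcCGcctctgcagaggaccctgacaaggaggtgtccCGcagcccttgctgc
Dlk1: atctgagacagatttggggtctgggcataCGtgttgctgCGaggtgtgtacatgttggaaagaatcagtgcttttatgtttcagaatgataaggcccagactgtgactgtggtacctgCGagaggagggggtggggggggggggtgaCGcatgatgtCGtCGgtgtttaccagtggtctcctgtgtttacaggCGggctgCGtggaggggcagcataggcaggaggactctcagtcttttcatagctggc

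The Grb10 window held 40 CpG sites, and 1.31% of all 32851 such windows held at least as many, while the window of its other start held 8 (43.0%). Plagl1 had 19 sites (19.7% of windows held at least as many) and Mest had 14 (29.4%), while Peg3 and Dlk1 each had 8 (43.0%). Of the 10 members 8 had at least 1 window in the table, and for a gene with several starts the window with most CpG sites was taken, a choice that was not made for the windows it is set beside. Meg3 then had 10 sites, Ndn 5 and Rian 0, where the median of all windows was 6. The letters TGCCGC, the core that the imprint-guarding zinc finger protein Zfp57 reads when methylated, were searched on both strands and were found 2 times in the Mest window and 1 time each in the Plagl1 and Meg3 windows. They were absent from the other 5, and 8.68% of all windows held them. These are descriptions of letters in 1 window per gene, not of binding or methylation in these cells.

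**Figure D1:**
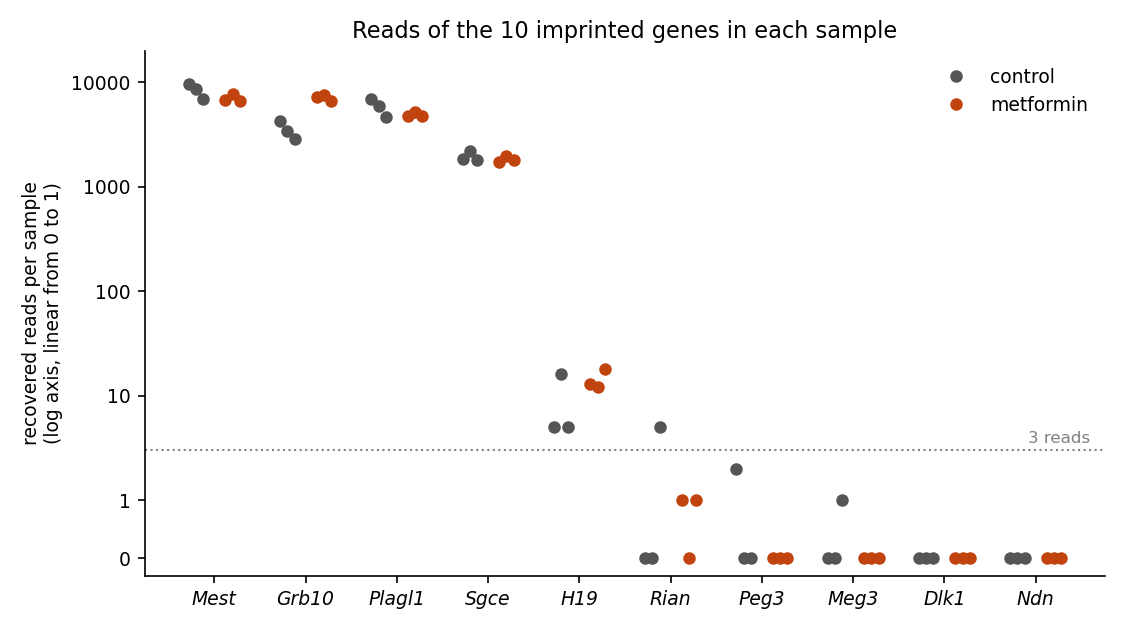
Recovered reads of each of the 10 genes in each of the 6 samples, on a log axis that is linear between 0 and 1, with controls in grey and metformin samples in orange and a dotted line at 3 reads. Mest, Grb10, Plagl1 and Sgce lie at 1737 reads or more in every sample, H19 lies between 5 and 18 reads, and the others lie at 0 to 5 reads.

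Grb10 was higher with metformin, and of the 4 tested members it was the 1 whose difference passed the test. The other 6 members were under the level limit and were not tested. It encodes an adaptor protein that binds activated insulin and IGF-1 receptors and restrains their signal, and in most tissues it is read from the maternal copy. Grb10 (ENSMUSG00000020176) lies on chromosome 11, from 11930508 to 12038683 on the minus strand (GRCm38). Its level was 25.7, 17.7 and 15.9 FPKM in control replicates 1, 2 and 3, and 40.0, 37.9 and 37.3 FPKM in metformin replicates 1, 2 and 3. Every metformin sample was above every control, and control replicate 1 was the control nearest to the metformin samples.

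The mean of Grb10 was 19.8 ± 5.21 FPKM in the controls (SD, n = 3) and 38.4 ± 1.42 FPKM with metformin (SD, n = 3), a ratio of 1.94. The log2 fold change was 0.95 with a standard error of 0.17 and a 95% interval of 0.54 to 1.36 (adjusted p = 0.00945 by limma-trend on log2(FPKM + 1), with Benjamini-Hochberg adjustment over the 12681 genes with a mean of at least 0.5 FPKM). Of those genes 13.2% were called higher at an adjusted p under 0.05, and 22.5% were called in either direction. In 23.6% all metformin samples lay above all controls, or in 44.1% above or below them. Among the tested genes 80.2% had a lower mean level than Grb10 in the controls and 90.1% did with metformin.

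Grb10 was called whichever of the 6 samples was omitted, with log2 fold changes of 0.82 to 1.15 and adjusted p-values of 7.25e-05 to 0.0482 by limma-trend. The smallest p-value was without control replicate 1, where 23.4% of tested genes were called higher, and the highest without metformin replicate 1. No other gene in the table overlaps Grb10, and no transcript of another gene was at least 95% identical to it over 200 bases. With all 6 samples, all 10 genes of a proliferation list were also called higher, where 13.2% of all tested genes were. The list was chosen with earlier results of these data known. Its summed level was 81.4 to 109 FPKM in the controls and 365 to 377 FPKM with metformin. Reads of the mitochondrial genes made up 6.36% to 10.01% of the controls and 2.72% to 3.16% of the metformin samples. The part of either in the difference of Grb10 was not tested. In bulk samples a change in the make-up of the cells and a change in RNA per cell cannot be told apart.

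Plagl1 and Mest were not called. Plagl1 encodes a zinc finger transcription factor that can arrest the cell cycle and is known to act on other imprinted genes, and it is read from the paternal copy. Its level (chromosome 10, 13060504 to 13131694) was 48.4, 36.0 and 30.1 FPKM in control replicates 1 to 3 and 30.4, 30.8 and 30.9 FPKM with metformin. The metformin samples lay close together inside the range of the controls, above control replicate 3 and below the other two. The log2 fold change was -0.28 with a 95% interval of -0.68 to 0.12 (adjusted p = 0.285 by limma-trend).

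Mest encodes a membrane protein of the hydrolase fold named for its level in embryonic mesoderm, and its paternal copy is the one read. Its level (chromosome 6, 30723547 to 30748465) was 134, 105 and 88.4 FPKM in control replicates 1 to 3 and 86.9, 90.1 and 85.5 FPKM with metformin. Metformin replicate 2 was above control replicate 3, and the other metformin samples were below every control. The log2 fold change was -0.30 with a 95% interval of -0.67 to 0.08 (adjusted p = 0.225 by limma-trend).

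Without control replicate 1 the log2 fold changes of Plagl1 and Mest were -0.096 (adjusted p = 0.370) and -0.14 (adjusted p = 0.222), smaller than with all samples by more than 1.5 times. Without control replicate 3 they were -0.43 (adjusted p = 0.0838), larger by more than 1.5 times, and -0.44 (adjusted p = 0.0652). When the libraries were corrected for transcript GC content the values were -0.35 (adjusted p = 0.0660) and -0.37 (adjusted p = 0.0530). Neither gene passed the threshold in any of these fits, where 20.4% of tested genes were called lower without control replicate 1 and 35.4% were called in either direction with the GC correction. With all 6 samples none of the 4 tested members was called lower, against 9.28% of tested genes. In 20.5% of tested genes all metformin samples lay below all controls, which neither Plagl1 nor Mest showed. Mest is the most abundant member: 97.3% of tested genes had a lower mean level in the controls and 96.2% with metformin.

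Sgce encodes epsilon-sarcoglycan, a membrane protein linked to the dystrophin-associated complex and read from the paternal copy. Its level (chromosome 6, 4674350 to 4747207) was 9.58, 9.90 and 8.61 FPKM in control replicates 1 to 3 and 8.25, 8.50 and 8.62 FPKM with metformin. The groups overlapped by a single pair, metformin replicate 3 and control replicate 3. The log2 fold change was -0.13 with a 95% interval of -0.33 to 0.07 (adjusted p = 0.309 by limma-trend), so a fall by more than 0.33 on the log2 scale lies outside that interval. With the GC correction the value was -0.06 (adjusted p = 0.666).

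**Figure D2:**
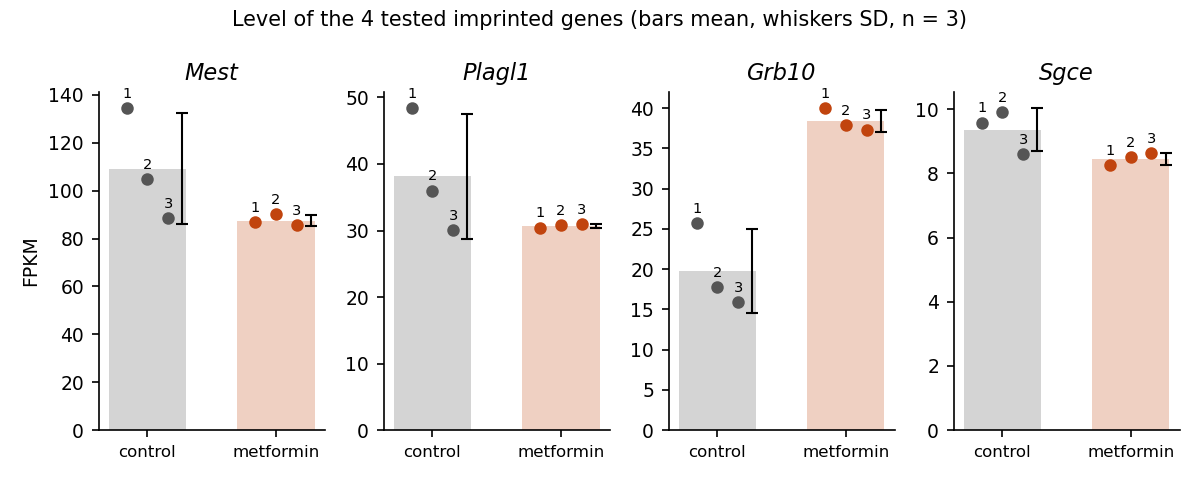
FPKM of Mest, Plagl1, Grb10 and Sgce, each panel from 0, with bars for the group mean, whiskers for the SD (n = 3) and numbered points for the replicates. The 3 metformin samples of Grb10 lie at 37.3 to 40.0 FPKM, above the controls at 15.9 to 25.7 FPKM, and in the other 3 genes the groups overlap.

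The order of the levels changed between the groups. In the controls the mean levels ran Mest (109 ± 23.3 FPKM, SD, n = 3), Plagl1 (38.1 ± 9.35 FPKM), Grb10 (19.8 ± 5.21 FPKM) and Sgce (9.36 ± 0.67 FPKM). With metformin Grb10 stood above Plagl1, at 38.4 ± 1.42 FPKM against 30.7 ± 0.27 FPKM (SD, n = 3), between Mest (87.5 ± 2.35 FPKM) and Sgce (8.46 ± 0.19 FPKM). Within a group no neighbours in this order overlapped between samples.

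The controls were more spread than the metformin samples. The coefficient of variation was 21.4% to 26.3% for Mest, Plagl1 and Grb10 in the controls and 0.882% to 3.70% with metformin, and the medians over all tested genes were 17.1% and 5.47%. In the controls these 3 genes shared 1 order of samples, with replicate 1 at 1.39 to 1.53 times the mean of replicates 2 and 3. Sgce did not share it, at 1.04 times. The longest transcripts of Mest, Plagl1 and Grb10 have a GC content of 46.4% to 48.5% and that of Sgce has 38.4%. Across genes the departure of control replicate 1 fell with rising GC content (Spearman rho -0.668). After the GC correction Mest, Plagl1 and Grb10 kept their order of control samples, and for Sgce replicate 1 was then the lowest control. The cause of the shared order was not tested.

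Because of that shared spread, proportions between members within each sample were also examined, in 4 pairs chosen after the values were seen. Plagl1 stood at 0.360, 0.343 and 0.340 of the level of Mest in control replicates 1 to 3 and at 0.350, 0.341 and 0.362 with metformin. The groups overlapped fully, and the difference of the log2 ratio was 0.01 (exact two-sided permutation test, p = 0.6). The ratio of Grb10 to Mest was 0.191, 0.169 and 0.180 in the controls and 0.460, 0.420 and 0.436 with metformin. Here the groups lay far apart, by 1.29 on the log2 scale (exact two-sided permutation test, p = 0.1, the smallest that 3 samples against 3 allow). The ratio of Grb10 to Plagl1 was 0.531, 0.493 and 0.528 in the controls and 1.32, 1.23 and 1.21 with metformin, again without overlap. The ratio of Sgce to Mest was 0.0712, 0.0945 and 0.0973 in the controls and 0.0949, 0.0944 and 0.101 with metformin, with overlap (difference 0.15 on the log2 scale, exact two-sided permutation test, p = 0.5). A ratio shows that 2 genes changed unequally and not which of them changed.

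**Figure D3:**
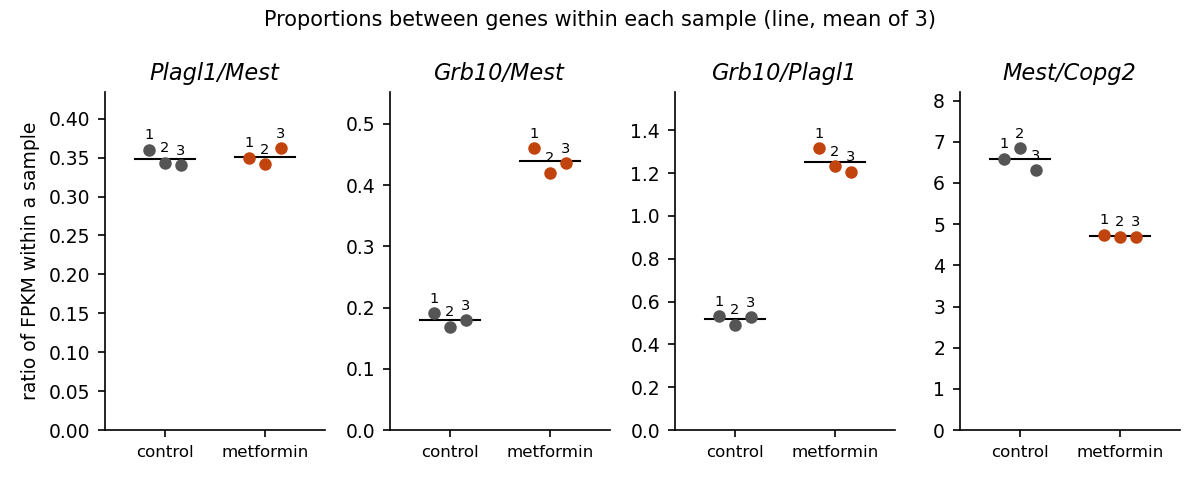
Ratios of FPKM within each sample for 4 pairs of genes, each axis from 0, with numbered points for replicates and a line for the mean of 3. Plagl1/Mest lies between 0.340 and 0.362 in all 6 samples, Grb10/Mest and Grb10/Plagl1 are higher in every metformin sample, and Mest/Copg2 is lower in every metformin sample.

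The remaining members were at or near the limit of detection, so the log2 fold changes of the fit do not cover them. H19 is a noncoding RNA that carries the microRNA miR-675 and is read from the maternal copy (chromosome 7, 142575529 to 142578143). It had 5, 16 and 5 reads in control replicates 1 to 3 and 13, 12 and 18 reads with metformin, or 0.111, 0.310 and 0.103 FPKM and 0.266, 0.224 and 0.376 FPKM. Control replicate 2 lay among the metformin samples, and the other controls lay below them. The means were 0.175 and 0.289 FPKM (exact two-sided permutation test, p = 0.3). With 3 samples against 3 this test cannot give less than 0.1, so it could not have passed 0.05. The row of Mir675 held 0 reads in every sample, although libraries of this kind do not capture mature microRNAs.

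Meg3 and Rian are noncoding RNAs of the maternal copy of the Dlk1-Dio3 cluster on chromosome 12, and Dlk1, a membrane protein related to Notch ligands that holds back the differentiation of fat cells, is its paternal counterpart. Meg3 had 1 read in control replicate 3 and 0 in the other samples. Rian, a host of small nucleolar RNAs, had 5 reads in control replicate 3, 1 read each in metformin replicates 1 and 3 and 0 in the others. Dlk1 had 0 reads in all 6 samples. The table lists 5 genes that overlap Meg3 and 19 that overlap Rian, and 0 of these had a read. One of them, Gm26906, has a transcript complementary to Meg3 over 805 bases. How reads shared by overlapping genes were counted is not given, so some may have been left out. From the start of Dlk1 to the end of Rian (109452823 to 109661716) the table lists 46 genes, of which 43 had 0 reads in every sample, and the whole stretch held 4 to 8 reads per sample.

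Reads in that stretch other than those of Rian and Meg3 belonged to Rtl1, a retrotransposon-derived gene with at most 7 reads. Mirg, the noncoding microRNA host beyond Rian, had at most 10. Dio3, the deiodinase gene at the far end of the cluster, was expressed at a low level of 1.70, 1.81 and 2.43 FPKM in the controls and 2.48, 3.30 and 3.03 FPKM with metformin. All metformin samples were above the controls, and the log2 fold change of 0.41 was not called (standard error 0.13, adjusted p = 0.0712 by limma-trend). The nearest tested gene below Dlk1 was Begain, at 385 kb, which was not called (log2 fold change -0.13, adjusted p = 0.705), nor was Gm3379, 431 kb above it (-0.14, adjusted p = 0.842).

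Peg3 and Ndn are the other members without appreciable reads. Peg3 encodes a large zinc finger protein of the paternal copy, and it had 2 reads in control replicate 1 and 0 in the other samples (chromosome 7, 6703892 to 6730431). Usp29, which shares its promoter region with Peg3, had 0 reads in every sample, and Zim1 had at most 4. Ndn encodes necdin, a growth-restraining protein of the MAGE family (chromosome 7, 62346569 to 62350262), and it had 0 reads in all 6 samples, as did its neighbour Magel2, while Snrpn had at most 2. With Dlk1, Ndn, Meg3 and Peg3, 4 of the 10 members had at most 3 reads in every sample, where 37.7% of the protein-coding genes and 66.3% of all genes of the table did.

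The partners of the expressed members in their clusters were compared next. Grb10 lies between Ddc, an amino acid decarboxylase gene 32.4 kb away, and Cobl, an actin nucleator gene 198 kb away. Ddc had 1.64 ± 0.18 FPKM in the controls and 1.68 ± 0.22 FPKM with metformin (SD, n = 3 each), a log2 fold change of 0.02 (adjusted p = 0.920 by limma-trend). Cobl was higher with metformin, at 2.91 ± 0.17 FPKM against 2.11 ± 0.07 FPKM (SD, n = 3 each; log2 fold change 0.33, adjusted p = 0.0291 by limma-trend). Its call was kept without control replicate 1 (adjusted p = 0.0124) and lost without any other single sample (adjusted p = 0.0608 to 0.135). The ratio of Grb10 to Ddc was 10.3 to 14.5 in the controls and 19.6 to 25.5 with metformin, without overlap (exact two-sided permutation test, p = 0.1, adjusted over 3 pairs 0.15).

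Sgce and Peg10, a retrotransposon-derived gene, start 99 bases apart on opposite strands. Peg10 had 3.07, 2.01 and 1.87 FPKM in the controls and 2.81, 3.06 and 2.73 FPKM with metformin, a log2 fold change of 0.24 that was not called (adjusted p = 0.290 by limma-trend). The ratio of Sgce to Peg10 was 3.12, 4.93 and 4.60 in the controls and 2.93, 2.78 and 3.16 with metformin, so that control replicate 1 lay among the metformin samples (exact two-sided permutation test, p = 0.2, adjusted over 3 pairs 0.2).

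Mest overlaps Copg2, a coatomer subunit gene on the opposite strand, and the longest Mest transcript is complementary to a Copg2 transcript over 912 bases. Whether the libraries kept strand was not tested, so reads of that stretch may not be told apart between the 2 genes. Copg2 had 16.6 ± 3.38 FPKM in the controls and 18.6 ± 0.53 FPKM with metformin (SD, n = 3 each), a log2 fold change of 0.17 that was not called (adjusted p = 0.430 by limma-trend). The ratio of Mest to Copg2 was 6.59, 6.84 and 6.31 in the controls and 4.75, 4.70 and 4.70 with metformin, without overlap and lower by 0.48 on the log2 scale with metformin (exact two-sided permutation test, p = 0.1, adjusted over 3 pairs 0.15). Mir335, whose hairpin lies in an intron of Mest, had 0 to 4 reads per sample.

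Around Plagl1 the nearest tested genes were Sf3b5 (51.3 kb, log2 fold change 0.51, adjusted p = 0.107) and Ltv1 (46.4 kb, 0.12, adjusted p = 0.406), neither called by limma-trend. Below Mest it was Cep41 (29.8 kb, -0.01, adjusted p = 0.929), above it was Gm13835 (394 kb, 0.12, adjusted p = 0.744), and below Sgce it was Casd1 (31.0 kb, -0.14, adjusted p = 0.676). Near H19, Mrpl23 at 34.8 kb had a log2 fold change of -0.004 (adjusted p = 0.988 by limma-trend). On its other side R74862 at 444 kb was not called (-0.29, adjusted p = 0.0611). Of the neighbours of Peg3, Zfp28 at 307 kb was not called (0.10, adjusted p = 0.559) and Zfp954 at 384 kb was lower (-0.48, adjusted p = 0.0245). Of those of Ndn, Mir344i at 261 kb was not called (0.20, adjusted p = 0.822) and Klf13 at 1536 kb was lower (-0.60, adjusted p = 0.00988).

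For comparison, 54 other genes for which imprinting has been reported in mouse were described, some of them imprinted in few tissues or by disputed evidence. Of these 17 (31.5%) had at most 3 reads in every sample, among them Igf2, the fetal growth factor gene beside H19, which was at 0 in every sample. Of the 26 tested, 2 were called higher and 1 lower, which is 11.5% where 22.5% of all tested genes were called in either direction, and their median log2 fold change was 0.04 where that of all tested genes was 0.01. Without control replicate 1 the counts were 7 and 4, with 43.8% of all tested genes called.

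The called genes were Dlx5, Cobl and Slc22a18. Dlx5, an osteoblast transcription factor gene whose imprinting is disputed, was at 20.5 ± 6.73 FPKM in the controls and 40.2 ± 0.42 FPKM with metformin (SD, n = 3 each), higher by 0.99 on the log2 scale (adjusted p = 0.0246 by limma-trend). The call was lost without any single metformin sample (adjusted p = 0.0831 to 0.0899) and kept without any single control. Slc22a18, a transporter gene of the Kcnq1 cluster, was at 1.03 ± 0.17 FPKM in the controls and 0.348 ± 0.039 FPKM with metformin (log2 fold change -0.59, adjusted p = 0.00981). Its call was kept whichever sample was omitted. It rests on few reads, 34, 41 and 28 in control replicates 1 to 3 and 11, 12 and 13 with metformin. The metformin mean of Slc22a18 was under the level limit, so the gene was tested only because of its level in the controls. Cdkn1c, the growth-restraining cyclin-dependent kinase inhibitor gene of the same cluster, was under the level limit, at 0.226 ± 0.162 and 0.0801 ± 0.0271 FPKM (SD, n = 3 each).

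**Figure D4:**
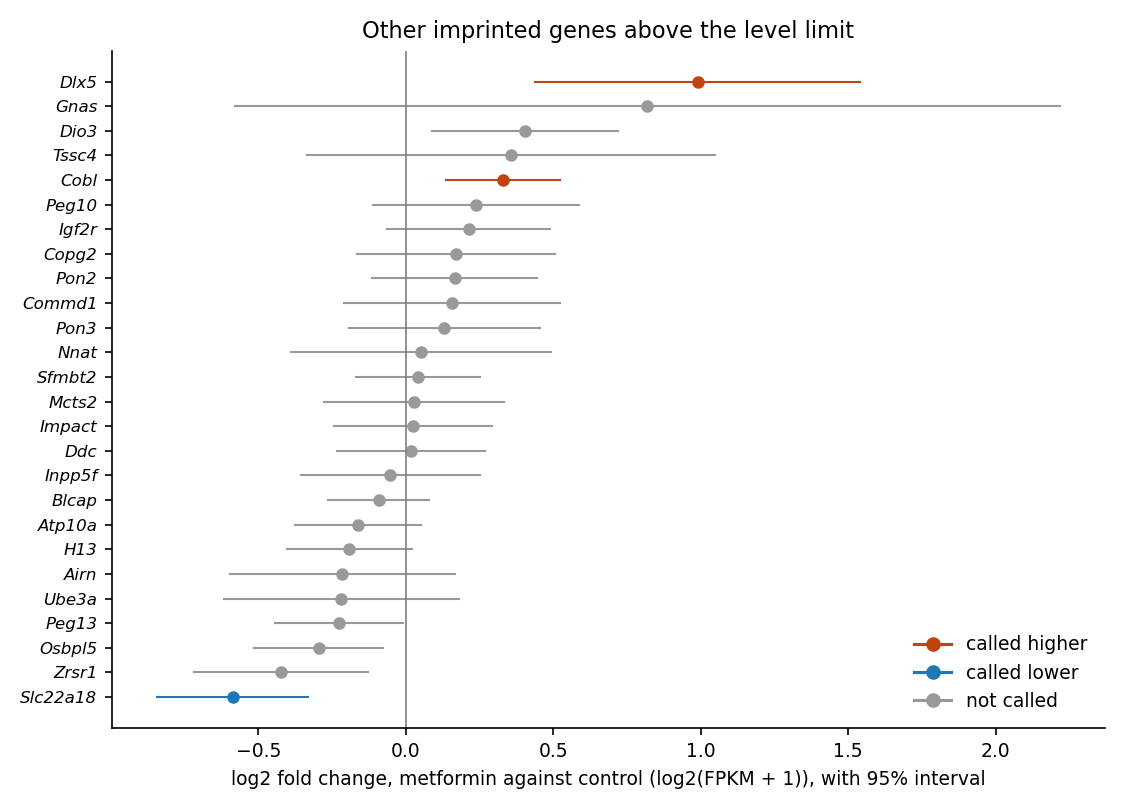
Log2 fold changes of the 26 tested genes among the 54 other imprinted genes, on log2(FPKM + 1), with 95% intervals as lines. Dlx5 (0.99) and Cobl (0.33) were called higher, Slc22a18 (-0.59) was called lower, and the wide interval of Gnas goes with a control replicate 1 at 1.28 FPKM where the other controls had 8.34 and 11.2 FPKM.

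Genes that work with the members were described by lists. Of 12 tested genes of insulin and IGF signalling, on which Grb10 acts, 1 was higher and 1 was lower, against 22.5% of all tested genes called. The growth factor gene Igf1 rose by 1.27 on the log2 scale, from 1.89 ± 0.43 to 5.92 ± 0.07 FPKM (SD, n = 3 each, adjusted p = 0.000672 by limma-trend). Pik3r1, which encodes a PI3K regulatory subunit, fell by 0.67 on the log2 scale (adjusted p = 0.00641). The receptor genes Insr and Igf1r were not called, with log2 fold changes of -0.24 (adjusted p = 0.153) and 0.04 (adjusted p = 0.794). Without control replicate 1, 2 genes of this list were higher and 3 lower, with 43.8% of all tested genes called.

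Of 9 tested relatives of the members 3 were higher and 0 lower, which is 33.3% called where 22.5% of all tested genes were. Dlk2, the paralog of Dlk1, rose from 4.49 ± 0.49 to 8.26 ± 0.45 FPKM (SD, n = 3 each), with every metformin sample above every control (log2 fold change 0.76, adjusted p = 0.00218 by limma-trend). Sgcd, which encodes delta-sarcoglycan, rose by 0.77 (adjusted p = 0.0158), and Maged2, of the family of Ndn, rose by 0.40 (adjusted p = 0.0274), both called without control replicate 1. The call of Sgcd was lost without any single metformin sample (adjusted p = 0.0606 to 0.0688), and that of Maged2 without any single sample other than control replicate 1 (adjusted p = 0.0511 to 0.128). The Grb10 paralog Grb14 (0.13, adjusted p = 0.429) and the Plagl1 paralog Plagl2 (-0.29, adjusted p = 0.0589) were not called.

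Of 9 tested partners of Sgce in the dystroglycan complex 3 were higher and 1 lower, which is 44.4% called where 22.5% of all tested genes were. The syntrophin gene Sntb1 rose by 0.89 (adjusted p = 0.00162 by limma-trend), Dag1, which encodes dystroglycan, rose by 0.44 (adjusted p = 0.0133), and Dtna, which encodes alpha-dystrobrevin, had a log2 fold change of -0.69 (adjusted p = 0.00447), while Sgcd is counted here as well. Without metformin replicate 1 or 2 the call of Dag1 was lost (adjusted p = 0.0752 and 0.0816). A list around Dlk1 and Notch held 7 tested genes: Notch1, Notch2, Notch3, Jag1, Hes1, Adam17 and Sox9. Of these Notch3 was higher (0.96, adjusted p = 0.00397) and Notch2 was lower (-0.38, adjusted p = 0.0259), which is 28.6% called where 22.5% of all tested genes were. Without control replicate 1 there were 2 of each, with 43.8% of all tested genes called. The call of Notch2 was lost without control replicate 3 or any single metformin sample (adjusted p = 0.0547 to 0.119).

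Of 6 tested genes of a network placed around Plagl1 and H19, Col1a1 (0.93, adjusted p = 0.0230 by limma-trend) and Col1a2 (0.57, adjusted p = 0.00719), which encode the chains of type I collagen, were higher, against 22.5% of all tested genes called in either direction. Dcn, which encodes the proteoglycan decorin, was lower (-0.80, adjusted p = 0.0457). Without a single metformin sample Col1a1 was not called (adjusted p = 0.0749 to 0.0942), Col1a2 was not called without metformin replicate 1 or 2 (adjusted p = 0.0525 and 0.0572), and Dcn was not called without control replicate 2 or any metformin sample (adjusted p = 0.103 to 0.136). A list around imprint maintenance and long-range control of imprinted clusters held 18 tested genes. Dnmt3a, Dnmt3b, Tet1, Tet2 and Tet3 were among them, so not every gene of the list is one that keeps imprints. Of the 18 genes 4 were higher and 1, Eed, was lower (-0.29, adjusted p = 0.0362 by limma-trend), which is 27.8% where 22.5% of all tested genes were called. The call of Eed was kept without control replicate 1 and lost without any other single sample (adjusted p = 0.0581 to 0.154). Uhrf1, a cofactor that brings the maintenance methyltransferase to newly made DNA, was at 6.21 ± 0.72 FPKM in the controls and 41.2 ± 1.01 FPKM with metformin (SD, n = 3 each), and the methyltransferase gene Dnmt1 rose from 5.43 ± 0.42 to 17.7 ± 1.33 FPKM. The log2 fold changes were 2.55 (adjusted p = 6.4e-05) and 1.54 (adjusted p = 0.000143), and the cohesin genes Smc1a and Rad21 rose by 0.71 and 0.65 (adjusted p = 0.000948 and 0.00229 by limma-trend). Without control replicate 1 the counts of this list were 6 and 3, with 43.8% of all tested genes called. These rises ran beside that of the proliferation list, whose Top2a, Aurkb, Ccna2 and Ccnb1 rose by 2.49 to 2.61 on the log2 scale, and the part of proliferation in them was not tested.

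**Figure D5:**
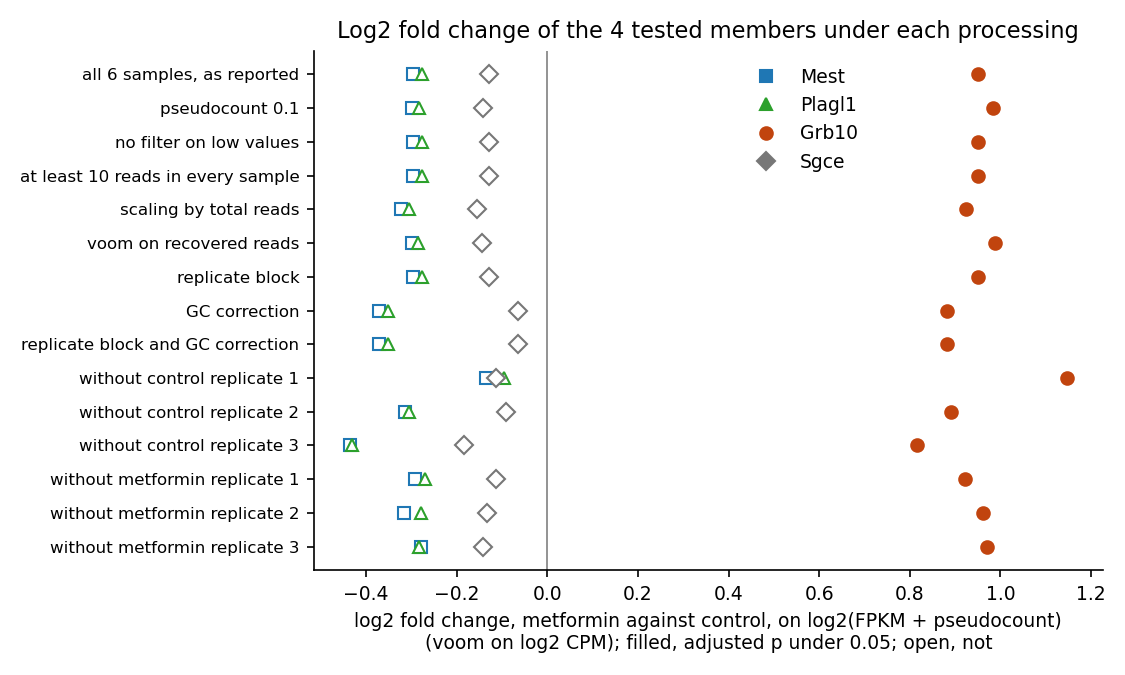
Log2 fold changes of Mest, Plagl1, Grb10 and Sgce with all 6 samples and under 14 other ways of processing, filled where the adjusted p was under 0.05 and open where it was not. Grb10 lies between 0.82 and 1.15 and is filled throughout, while the others lie between -0.44 and -0.06 and are open throughout.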

How the data were processed

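RNA sequencing libraries of MC3T3-E1 cells (3 control, 3 metformin) were made with an Illumina TruSeq kit. The deposited table names no unit. Its values were identified as FPKM, which the authors scaled by the listed gene length and an effective library size: within each sample, 100% of the values above 0, once multiplied by gene length, were whole numbers of reads of 1 fixed size (tolerance 0.01). The recovered totals were 18399861 to 22111790 reads. The floor of 3 reads covers counting error only, and the intervals of the fold changes rest on the spread between the samples. The submitters' processing notes name Bowtie 0.12.2, mm8 and mm9, while 53585 of the 54532 genes, and all 10 members, have the coordinates of GENCODE M21 (GRCm38). The aligner actually used for this table and the counting tool are not given in the sources used here. The authors tested expression with DESeq2.

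Groups were compared with limma 3.58.1 (R 4.3.3), with an intensity trend. The 12681 genes averaging at least 0.5 FPKM were tested as log2(FPKM + 1), a scale that understates changes of low genes. Benjamini-Hochberg adjusted p-values under 0.05 were called. The fit was tested on simulated data. Those data had the same spread in both groups and no sample that stood apart, so they do not cover the unequal spread seen here. Single values used the exact permutation test over the 20 splits of 6 samples. Ratios used genes with at least 10 reads in every sample, which left 3 of 8 pairs. Near-identical transcripts were sought with BLAST+ 2.17.0. The members and lists were chosen with earlier results of these data known. Named were all members, the nearest tested genes, cluster partners and up to 4 called genes per list with the largest changes. Alternatives were a pseudocount of 0.1, no filter, at least 10 reads in every sample, scaling by total reads, voom on recovered reads, the replicate block, a GC correction (a spline with 5 degrees of freedom), a fold limit and leaving out each sample.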

Additional observations from a re-analysis of the deposited data

How the results depend on the processing

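Grb10 kept its call and direction under all 14 alternatives fitted for it (log2 fold change 0.82 to 1.15, adjusted p = 7.25e-05 to 0.0482 by limma). Plagl1, Mest and Sgce were called under none of theirs, with adjusted p-values of 0.0660 to 0.470, 0.0530 to 0.420 and 0.148 to 0.666, and no sign changed. Requiring also an absolute log2 fold change of at least 1 left 0 members called higher, since Grb10 was at 0.95. No member was called lower in any fit. With the replicate block Grb10 had an adjusted p of 0.0142. Departures from the group mean correlated at -0.0533, 0.000265 and -0.0549 across the 3 pairs with equal numbers. Control replicate 1 stood apart and the metformin samples were little spread. These values therefore cannot show whether samples of equal number were handled together.

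Genes called higher were 1670 and lower 1177. The lower were 698 with the replicate block, 2433 with the GC correction and 1888 with both, and the fold limit gave 468 and 168. Over fits that left out 1 sample the higher ranged from 938 to 2969 and the lower from 495 to 2590, both highest without control replicate 1. The GC correction moved all log2 fold changes by a median of -0.0542.

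The other imprinted genes were filed in 2 lists by parental copy. That filing is disputed or depends on tissue for some, among them Dlx5, Copg2 and Ddc, so the counts do not describe parental copies. The share of all tested genes called in either direction also moved with the setting. It was 22.5% with all 6 samples, 35.4% with the GC correction and 43.8% without control replicate 1. For every list whose count moved, the highest count leaving out 1 sample came without control replicate 1. The paternal list had 1 call, Dlx5: 0 with no filter, 2 with voom, 3 with the GC correction and 2 with block and GC correction. It had 0 with the fold limit, and 0 to 4 leaving out 1 sample. The maternal list had 2: 1 with no filter, 1 with the replicate block, 4 with the GC correction, 1 with both, 0 with the fold limit, and 1 to 7 leaving out 1 sample. The imprint maintenance list had 5: 10 with the GC correction, 8 with both, 2 with the fold limit, and 4 to 9 leaving out 1 sample. The Notch list had 2: 1 with the block, 0 with the fold limit, and 1 to 4 leaving out 1 sample. The Plagl1 and H19 network had 3: 0 with no filter, 0 with the fold limit, and 0 to 4 leaving out 1 sample. The insulin and IGF list had 2: 1 with the fold limit, and 2 to 5 leaving out 1 sample. The Sgce partner list had 4: 0 with the fold limit, and 2 to 5 leaving out 1 sample. The relatives list had 3: 0 with the fold limit, and 1 to 4 leaving out 1 sample. The proliferation list had 10 throughout. The fold limit is a stricter rule by construction, and for the other changes the cause was not tested.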
